A study of Mus musculus with 40 samples.

Results

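The 9 genes described here, S100a8, S100a9, Csf3r, Retnlg, Mmp8, Itgam, Cybb, Ncf1 and Ncf4, were chosen by symbol because neutrophils, or phagocytes more widely, use their products. All 9 were found among the 55359 gene identifiers of the count tables, and all 9 passed the filter on low counts that 15373 genes passed. Hepatic RNA had been sequenced from 40 male C57BL/6 mice, 5 in each of 8 groups, which received sesame oil vehicle or TCDD in that oil, at low doses of 0.03, 0.1 or 0.3 μg/kg or at 1, 3, 10 or 30 μg/kg. TCDD is a dioxin that binds and activates the transcription factor AhR (aryl hydrocarbon receptor). Each mouse was gavaged every 4 days over 28 days, 7 times in all, from 30 to 58 days of age, and the labels name no genetic alteration in any group. The question put to the genes was at which dose their RNA rose in the liver, and by how much.

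Neutrophils are short-lived blood granulocytes that enter tissue along chemokine gradients, carry preformed proteases and antimicrobial proteins in granules, and keep a large cytosolic store of the calcium-binding pair S100A8 and S100A9. The phagocyte NADPH oxidase is an enzyme of several parts that moves electrons from NADPH to oxygen and so makes superoxide. Its catalytic chain (Cybb) and its partner (Cyba) sit in the membrane, while the organizer (Ncf1) and an accessory part (Ncf4) are among those that wait in the cytosol and join them, with a Rac GTPase, when the cell is stimulated. Macrophages, Kupffer cells of the liver among them, make the same oxidase.

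Proximal promoters were read from RefSeq (GRCm38.p6), in which 8 of the 9 genes had an entry and Ncf4 had none. Those of 4 genes whose values the comparisons below turn on are shown, as the 250 bases that precede the start site on the gene's own strand. They lie at chr3:90668821-90669070 (plus strand) for S100a8, chr3:90695722-90695971 (minus) for S100a9, chr4:126024409-126024658 (plus) for Csf3r and chr9:7558179-7558428 (plus) for Mmp8. Capitals mark matches, on either strand, to the C/EBP letters TTNNGCAA or the PU.1 letters GAGGAAG, motifs of factors that act in myeloid cells.
S100a8: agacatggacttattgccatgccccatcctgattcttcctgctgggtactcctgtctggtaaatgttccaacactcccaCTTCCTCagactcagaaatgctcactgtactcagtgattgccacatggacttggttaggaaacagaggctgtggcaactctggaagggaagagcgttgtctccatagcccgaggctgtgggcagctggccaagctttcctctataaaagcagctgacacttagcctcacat
S100a9: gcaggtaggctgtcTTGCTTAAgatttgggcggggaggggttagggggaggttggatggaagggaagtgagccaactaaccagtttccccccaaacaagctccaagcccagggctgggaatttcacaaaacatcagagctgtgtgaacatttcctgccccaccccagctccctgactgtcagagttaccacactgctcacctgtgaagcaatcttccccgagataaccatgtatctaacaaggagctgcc
Csf3r: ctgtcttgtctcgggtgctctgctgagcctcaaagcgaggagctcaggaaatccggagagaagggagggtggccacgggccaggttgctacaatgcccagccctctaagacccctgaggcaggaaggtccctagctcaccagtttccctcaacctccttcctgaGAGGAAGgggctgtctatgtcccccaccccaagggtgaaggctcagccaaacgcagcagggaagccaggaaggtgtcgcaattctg
Mmp8: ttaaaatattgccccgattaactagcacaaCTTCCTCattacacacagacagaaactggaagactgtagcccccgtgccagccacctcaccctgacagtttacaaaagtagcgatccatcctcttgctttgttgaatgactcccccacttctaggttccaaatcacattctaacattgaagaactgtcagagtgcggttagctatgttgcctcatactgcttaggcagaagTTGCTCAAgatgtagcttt

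The C/EBP letters began at -236 in S100a9, -246 in Retnlg and -19 in Mmp8, counted from the start site, and were present in 9.56% of 32851 RefSeq promoters of this length. The PU.1 letters were found at -171 in S100a8, -86 in Csf3r, -220 in Mmp8 and -84 in Itgam, and in 10.6% of all promoters. Cybb and Ncf1 held neither. The core of the dioxin response element, GCGTG, at which the AhR can bind, was in 0 of the 8 promoters and in 28.2% of all promoters. These are matches of letters within 250 bases, and neither their presence nor their absence was tested as a site.

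Libraries held between 15.5 M and 21.0 M counts in genes (median 17.5 M), and each of the 80 pairs of replicates differed by more than sampling noise (chi-square over its degrees of freedom of 11.1 or more). Cyp1a1, the AhR target that marks exposure, had 14 to 36 counts in the vehicle libraries and stood 6.42 above vehicle on the log2 scale at 0.03 μg/kg and 11.75 above at 30 μg/kg. The 5 matched hepatocyte markers summed to 97524 to 118037 CPM in vehicle (CPM is the count scaled to the effective library size), and all 5 fell at 30 μg/kg, Alb to 0.416 of its vehicle level. Library 2 of the 3 μg/kg group had the highest share of unmapped reads of the series (11.3%) and library 1 of the 30 μg/kg group lay apart from its group on the first principal component (81.7 against 129 to 147 for the other 4). Because both also stood apart in the genes below, results that rest on them are given with and without them.

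**Figure D1:**
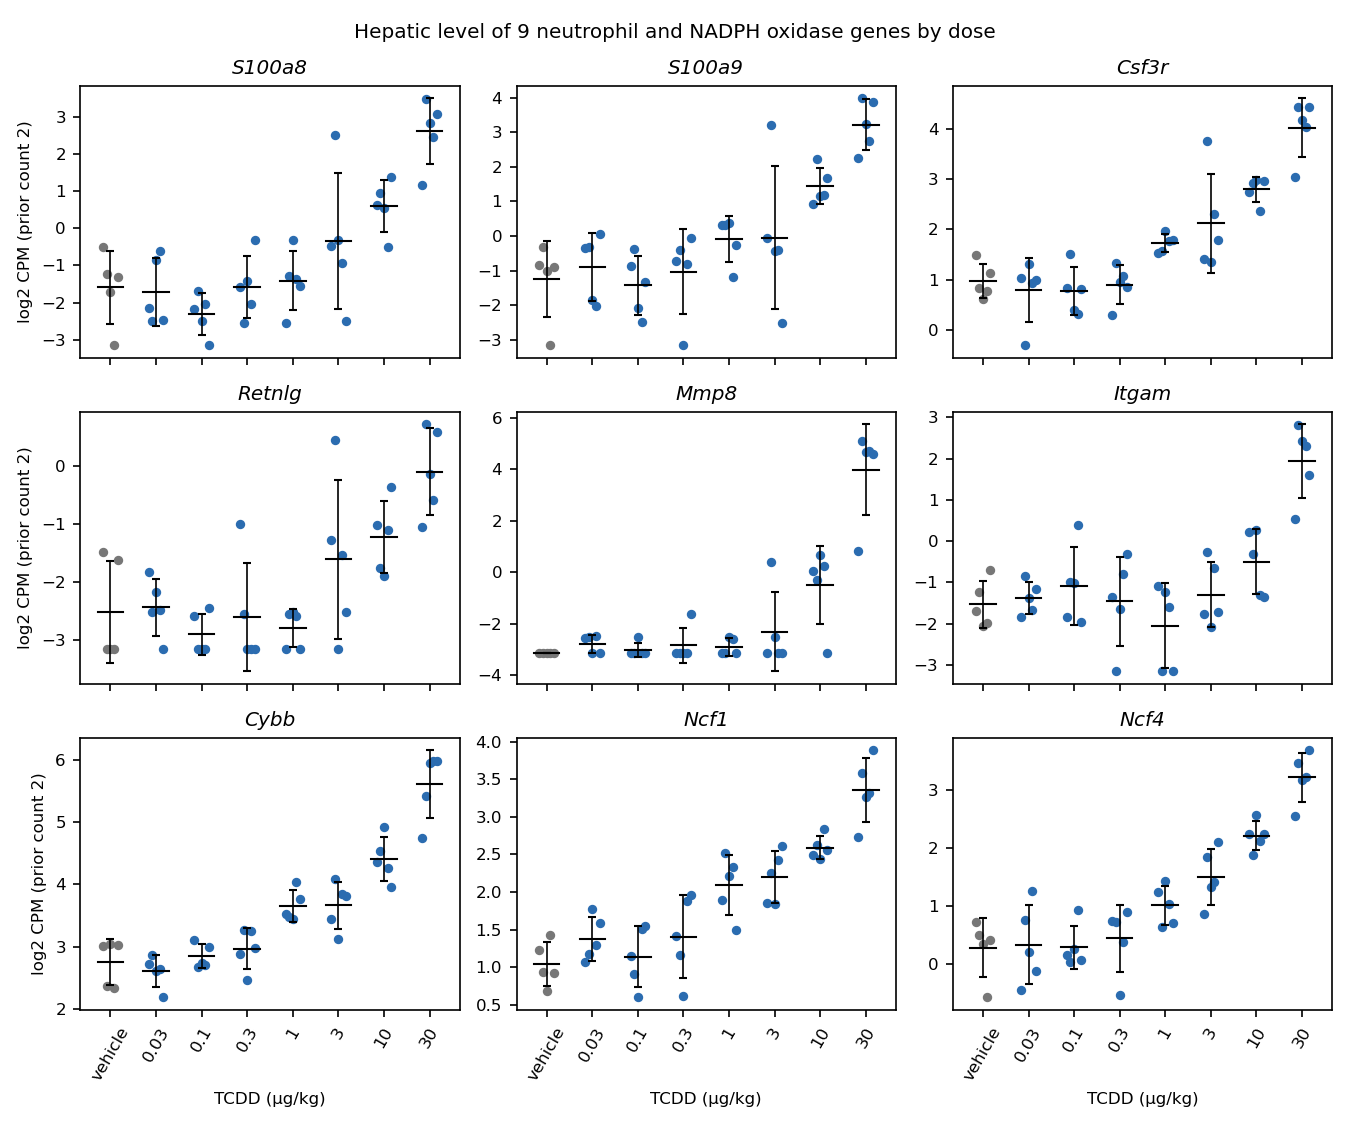
Log2 CPM (prior count of 2) of each gene in each of the 40 livers, plotted against the dose of TCDD in μg/kg, with vehicle in grey. Horizontal lines are group means and bars are SDs (n = 5), and in each panel the 30 μg/kg livers lie above every vehicle liver.

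No gene of the 9 was called at 0.03, 0.1 or 0.3 μg/kg, where a call needed a Benjamini-Hochberg adjusted p under 0.05 and a fold change of at least 1.5, and where 0.0195%, 0.0846% and 0.403% of the 15373 genes were called higher. At 1 μg/kg 2 of the 9 rose (background 2.15%), at 3 μg/kg 6 rose (4.53%), or the 3 oxidase genes alone without library 2 of that group, at 10 μg/kg 7 rose (13.6%) and at 30 μg/kg all 9 rose (23.2%). None was called lower at any of these 7 doses, where 0%, 0.013%, 0.065%, 0.637%, 2.22%, 8.13% and 18.9% of all genes were. The lowest dose with a call was 1 μg/kg for Cybb and Ncf1, 3 μg/kg for Ncf4, S100a8, S100a9 and Csf3r, 10 μg/kg for Mmp8 and 30 μg/kg for Retnlg and Itgam. This order also depends on how many counts a gene had. At 1 μg/kg S100a9 was at 2.25-fold (log2 1.17, SE 0.79) and not called, while Cybb was called at 1.85-fold (SE 0.21 on the log2 scale). S100a8 was at 1.06-fold there, and Retnlg and Itgam were below vehicle, none of them called. The slope over the ordered dose steps was upward and passed the test in all 9 genes, as it did in 31.5% of all genes. The median log2 fold change of the 9 genes was 0.75 at 1 μg/kg, 1.47 at 3 μg/kg (0.79 without library 2 of that group), 1.85 at 10 μg/kg and 3.17 at 30 μg/kg, beside a median over all genes of 0.03 at 30 μg/kg. The highest vehicle count was 0 for Mmp8, 5 for Retnlg and 7 for Itgam, under the minimum count of 10 in the filter. S100a8 had 12, 5, 3, 0 and 4 vehicle counts and S100a9 9, 11, 6, 0 and 6, so vehicle alone would not have passed them. These 5 genes passed the filter only through treated livers, so being tested and being high at the upper doses are linked for them. The link is weakest for S100a9, which had 12, 11, 3, 2 and 14 counts at 0.03 μg/kg. The calls of these 5 genes are therefore not independent of the filter, and setting them beside the shares of all genes does not remove this limit. In whole liver, more cells of a type cannot be told apart from more RNA per cell.

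The oxidase chain Cybb and, with it, Ncf1 were called at the lowest dose of the 9 genes. The level of Cybb was 7.91, 5.04, 8.09, 4.97 and 8.02 CPM in the 5 vehicle livers, 11.4, 11.1, 10.8, 16.4 and 13.5 CPM at 1 μg/kg and 26.6, 42.9, 61.4, 62.7 and 62.7 CPM at 30 μg/kg. Every liver at 1 μg/kg was above every vehicle liver, and so was every liver at 3, 10 and 30 μg/kg. The fold change was 1.85 at 1 μg/kg (log2 0.89, SE 0.21, edgeR adjusted p = 0.00995), 1.90 at 3 μg/kg, 3.18 at 10 μg/kg and 7.52 at 30 μg/kg (log2 2.91, SE 0.22, edgeR adjusted p = 6.19e-14). The values at 1 and 3 μg/kg, 12.6 ± 2.35 and 12.9 ± 3.24 CPM (SD, n = 5), lay within each other's spread. Library 1 at 30 μg/kg, at 26.6 CPM, was lower than the highest liver at 10 μg/kg (30.1 CPM), and the other 4 were above it.

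Ncf1, which organizes the cytosolic parts, had 45, 29, 23, 37 and 25 counts in vehicle and 61, 94, 72, 89 and 48 counts at 1 μg/kg. In CPM the lowest liver at 1 μg/kg (2.71) was just above the highest in vehicle (2.59). Its fold change was 2.15 at 1 μg/kg (log2 1.10, SE 0.25, edgeR adjusted p = 0.00499), 2.30 at 3 μg/kg, 2.98 at 10 μg/kg and 5.26 at 30 μg/kg, the smallest at 30 μg/kg among the 8 of these genes that had counts in vehicle. The levels at 10 μg/kg were close together, 5.93 ± 0.659 CPM (SD, n = 5), and at 30 μg/kg they reached 10.5 ± 3.00 CPM. Of the exonic bases of Ncf1 in GENCODE M21, 11.1% are also covered by exons of Gtf2ird2 on the opposite strand, and reads there could be assigned to neither gene in counts without strand. With the counts of 1 strand alone, Ncf1 at 1 μg/kg was at log2 0.87 and was not called. Counts were split almost evenly between strands in every library (50.0% to 50.3% on the first), so they cannot separate Ncf1 from Gtf2ird2.

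Ncf4, the accessory part that binds phosphoinositides on the phagosome, had 31, 21, 18, 8 and 17 counts in vehicle, 28, 58, 38, 44 and 65 counts at 3 μg/kg and 124, 260, 233, 230 and 300 counts at 30 μg/kg. From 3 μg/kg upwards, the groups did not overlap with vehicle in CPM. At 1 μg/kg it was 1.66-fold above vehicle with an adjusted p of 0.233, and was not called. It rose 2.43-fold at 3 μg/kg (edgeR adjusted p = 0.00434), 3.88-fold at 10 μg/kg and 8.04-fold at 30 μg/kg (log2 3.01, SE 0.31).

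The title numbers of the samples fall into numbering runs, up to 27 (19 libraries) and from 28 (21 libraries), with 2 or 3 mice of each group in each, and what separates the runs is not stated. Within run 1 alone, 1, 1, 3 and 8 of the 9 genes were called at 1, 3, 10 and 30 μg/kg, and within run 2 alone 0, 2, 7 and 9 were. Cybb at 1 μg/kg was called in neither run (log2 0.65 and 1.20), nor was Ncf4 at 3 μg/kg (0.89 and 1.92), and Ncf1 at 1 μg/kg was called in run 1 (1.30) and not in run 2 (0.80). All 3 oxidase genes kept their direction in both runs from 1 μg/kg upwards. With the run as a covariate, the number of the 9 genes called stayed at 2, 6, 7 and 9.

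The partners of the oxidase had a mixed response. Of 6 partners, all tested, 1 rose at 1 μg/kg (Rac2, 1.79-fold), 3 at 3 μg/kg, 3 at 10 μg/kg and 4 at 30 μg/kg, and none fell. Without library 2 at 3 μg/kg, 2 rose at that dose. Cyba, the membrane partner that stabilizes Cybb, had 54 to 126 counts in vehicle and 430 to 1361 at 30 μg/kg, which was 6.73-fold (log2 2.75, SE 0.24). Rac2, the Rac GTPase of blood cells, rose 4.25-fold, and its widely expressed relative Rac1 was at 1.05-fold (127 ± 7.21 CPM in vehicle, 134 ± 8.55 at 30 μg/kg, edgeR adjusted p = 0.551). Vav1, an exchange factor for Rac in blood cells, rose 5.22-fold, and Prkcd, a kinase that phosphorylates Ncf1, rose 2.05-fold. Cybc1, a chaperone of the membrane chains, was at 1.42-fold, under the fold threshold, with an adjusted p of 0.00047. The count of Cybb divided by that of Cyba in the same library, uncorrected for length, had a median of 1.33 in vehicle (0.643 to 1.61) and of 1.34 at 30 μg/kg (0.921 to 1.93), so these ranges overlapped.

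The other NADPH oxidases moved differently from one another. Nox4, a constitutively active oxidase found in liver parenchyma, had 606, 351, 406, 467 and 317 counts in vehicle and 230, 13, 38, 28 and 20 at 30 μg/kg. All 5 livers were below the lowest vehicle liver, with library 1 the least so, and Nox4 fell 9.34-fold (log2 -3.22, SE 0.43, edgeR adjusted p = 4.55e-08), or to a log2 of -4.74 without that library. Noxa1, an activator of Nox1, fell 2.63-fold. Duox1, an epithelial oxidase that makes hydrogen peroxide, had no count in vehicle and 66, 55, 47, 90 and 38 counts at 30 μg/kg, at least 12.9-fold higher against a floor of 3 counts per vehicle library. Nox1, Nox3, Noxo1 and Duox2 fell under the filter on low counts, with highest counts at 30 μg/kg of 1, 0, 16 and 44.

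**Figure D2:**
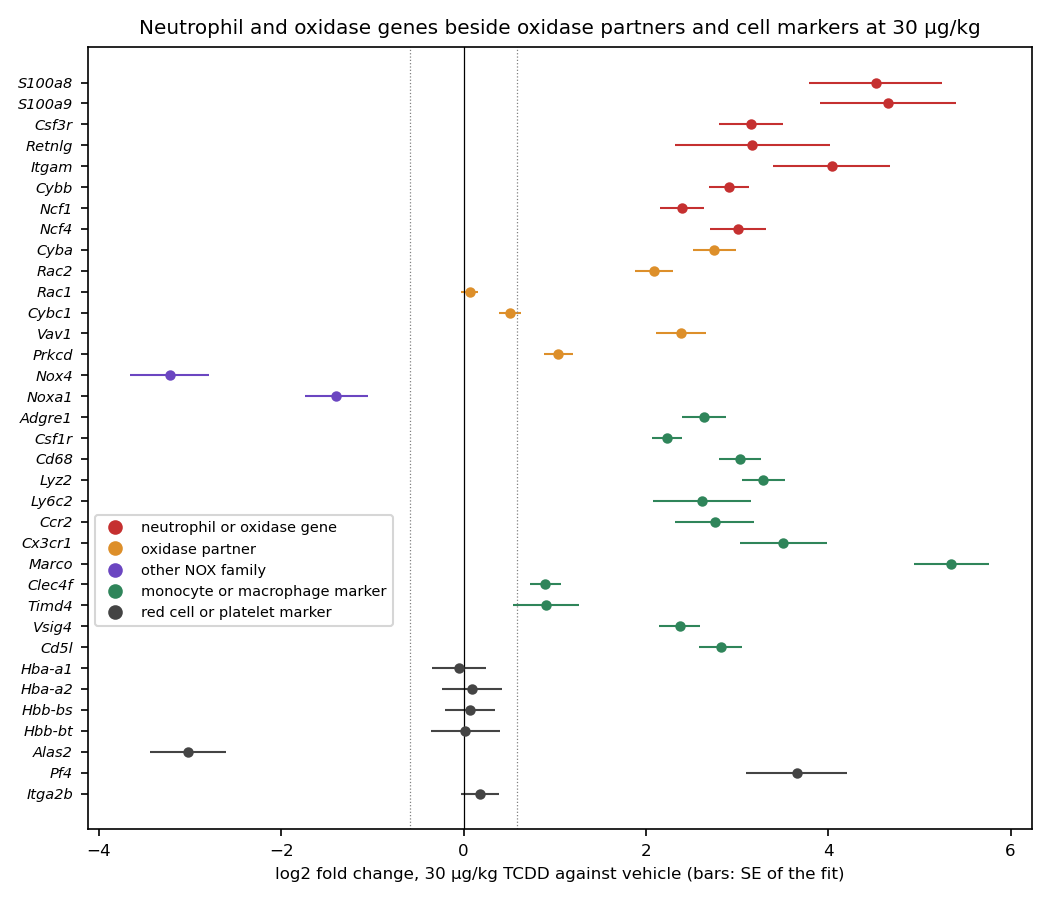
Log2 fold changes at 30 μg/kg TCDD against vehicle with the SE of the fit, for the genes described here, oxidase partners, other NOX family genes, monocyte or macrophage markers and red cell or platelet markers. Dotted lines mark a 1.5-fold change, Mmp8 and Duox1 are left out because no vehicle library had a count, the 8 neutrophil and oxidase genes lie between 2.40 and 4.65, and Rac1 and the 4 globin genes lie near 0.

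The alarmins S100a8 and S100a9, whose proteins pair as calprotectin, were near the floor in vehicle. S100a8 had 12, 5, 3, 0 and 4 counts in vehicle, 30, 39, 26, 10 and 45 at 10 μg/kg and 46, 267, 185, 136 and 198 at 30 μg/kg. S100a9 had 9, 11, 6, 0 and 6 counts in vehicle, 37, 99, 41, 37 and 55 at 10 μg/kg and 100, 376, 243, 166 and 347 at 30 μg/kg. For both, vehicle library 4 had none and library 1 was the lowest of the 30 μg/kg group, but no liver at 30 μg/kg came down to the vehicle range. At 10 μg/kg S100a8 rose 5.20-fold (log2 2.38, SE 0.73, edgeR adjusted p = 0.0111), although 1 of the 5 livers lay under the highest vehicle liver in CPM, and S100a9 rose 6.83-fold with no overlap. At 30 μg/kg S100a8 rose 22.9-fold (log2 4.52, SE 0.73, edgeR adjusted p = 1.95e-06) and S100a9 25.2-fold (log2 4.65, SE 0.75). Counts of S100a9 over S100a8 in the same library, uncorrected for length, had overlapping ranges, with a median of 1.58 at 10 μg/kg (1.22 to 3.70) and of 1.41 at 30 μg/kg (1.22 to 2.17).

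The calls of both at 3 μg/kg rested on 1 liver. S100a8 had 10, 94, 11, 7 and 1 counts there and S100a9 had 14, 153, 10, 11 and 1, so library 2 held most of the counts of each. Without it, S100a8 went from 5.00-fold to 1.51-fold (edgeR adjusted p = 0.671) and S100a9 from 5.65-fold to 1.38-fold (adjusted p = 0.744). With it kept, the S100a8 call was also lost without vehicle library 2, 3, 4 or 5 (4.09-fold to 5.08-fold, adjusted p from 0.0648 to 0.0998), and the S100a9 call without vehicle library 1, 3 or 4 (4.60-fold to 5.87-fold, adjusted p from 0.0509 to 0.0758). In numbering run 2, which does not hold that liver, the log2 value at 3 μg/kg was 0.74 for each gene. Run 1 alone called neither gene at 10 μg/kg (4.19-fold and 6.14-fold), while run 2 alone called both there, and at 30 μg/kg gave 45.6-fold for S100a8 and 45.3-fold for S100a9. The step from 10 to 30 μg/kg was 4.41-fold for S100a8 and 3.69-fold for S100a9 (adjusted p = 0.0162), and the latter call was lost without library 2 of the 30 μg/kg group (3.15-fold, adjusted p = 0.0545).

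Csf3r, the receptor for granulocyte colony-stimulating factor that drives neutrophil production and survival, had 54, 27, 22, 23 and 29 counts in vehicle. It had 47, 48, 60, 60 and 59 counts at 1 μg/kg, all 5 livers lying above vehicle in CPM, but at 1.68-fold it was not called (edgeR adjusted p = 0.295). At 3 μg/kg it had 42, 223, 39, 83 and 52 counts, with library 2 again far above the others, and was 2.77-fold up (adjusted p = 0.00364), or 1.72-fold and not called without that liver (adjusted p = 0.0869). With library 1 at 30 μg/kg left out as well, an alternative chosen after the data were seen, it was called at 1.73-fold (adjusted p = 0.0441). Against vehicle it rose 3.60-fold at 10 μg/kg (136, 162, 149, 86 and 137 counts) and 8.90-fold at 30 μg/kg (174, 517, 469, 409 and 510 counts; log2 3.15, SE 0.35, adjusted p = 8.13e-10). Every liver at 30 μg/kg was above every liver at 10 μg/kg in CPM, library 1 only narrowly so (8.05 against at most 7.77 CPM). Run 1 alone did not call Csf3r at 10 μg/kg (3.54-fold, edgeR adjusted p = 0.0684).

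Retnlg, a resistin-like secreted protein of mouse neutrophils, was scarcely detected. It had 5, 0, 0, 0 and 3 counts in vehicle, 8, 4, 3, 6 and 12 at 10 μg/kg and 8, 37, 21, 14 and 33 at 30 μg/kg. The 30 μg/kg livers were all above the vehicle livers, and Retnlg rose 8.99-fold there (log2 3.17, SE 0.85, edgeR adjusted p = 0.00169). That value depends on vehicle library 1, without which it was 16.2-fold, and in numbering run 1 alone the call was lost (9.69-fold, adjusted p = 0.0611). At 10 μg/kg, 3.38-fold (6.10-fold without vehicle library 1), and between 10 and 30 μg/kg, 2.66-fold (adjusted p = 0.133), Retnlg was not called.

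Mmp8, the collagenase of neutrophil granules, had the widest range. Its counts were 0 in all 5 vehicle livers, at most 1 in any liver at 0.03, 0.1 and 1 μg/kg, 0, 0, 0, 0 and 4 at 0.3 μg/kg and 0, 20, 1, 0 and 0 at 3 μg/kg, the 20 again in library 2. At 10 μg/kg it had 19, 15, 28, 18 and 0 counts, and at 30 μg/kg 36, 815, 657, 658 and 566. The step from 10 to 30 μg/kg thus lay between livers with at most 28 counts and 4 livers with 566 or more, and library 1 at 30 μg/kg, with 36, stood near the 10 μg/kg livers. Against a floor of 3 counts per vehicle library, Mmp8 was at least 4.32-fold higher at 10 μg/kg (edgeR adjusted p = 0.00117) and at least 116-fold higher at 30 μg/kg (adjusted p = 5.24e-10). From 10 to 30 μg/kg it rose 26.6-fold (log2 4.73, SE 0.66, adjusted p = 1.25e-06). In numbering run 1 alone, the call at 10 μg/kg was lost (adjusted p = 0.0945), and without library 1 at 30 μg/kg, Mmp8 at 3 μg/kg was called (adjusted p = 0.0434), but not with library 2 at 3 μg/kg left out too (adjusted p = 0.610).

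Mmp8 also changed relative to Csf3r. The count of Mmp8 per count of Csf3r in the same library was 0 to 0.209 at 10 μg/kg and, in the 30 μg/kg livers, 0.207, 1.58, 1.40, 1.61 and 1.11. Library 1 at 30 μg/kg had the ratio of the 10 μg/kg livers, and the other 4 were above every one of those. Library 2 at 3 μg/kg, whose Csf3r level of 13.3 CPM exceeded that of every 10 μg/kg liver, had a ratio of 0.0897.

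**Figure D3:**
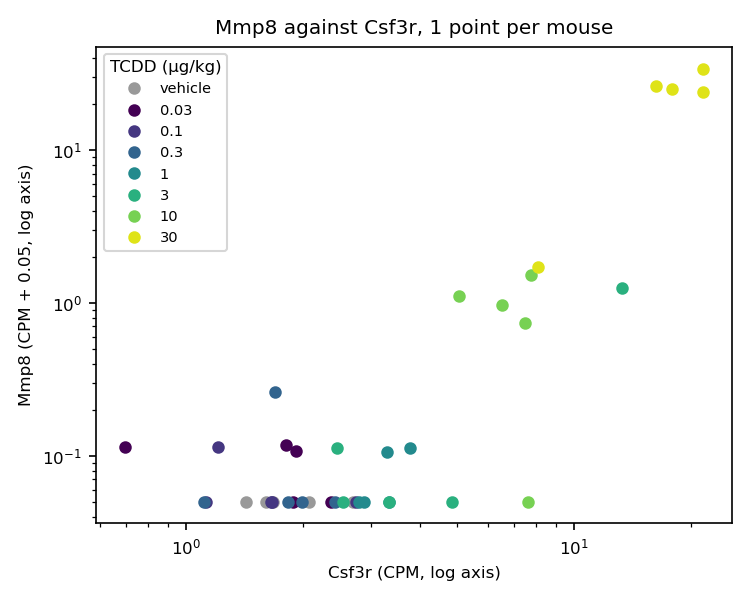
CPM of Mmp8 (plus 0.05, so that 0 can be drawn) against CPM of Csf3r, both on log axes, with 1 point per liver coloured by dose in μg/kg. Mmp8 stays at or under 1.46 CPM up to 10 μg/kg, and 4 of the 5 livers at 30 μg/kg lie between 23.9 and 33.9 CPM.

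Itgam, the alpha chain of the complement receptor integrin of neutrophils, monocytes and macrophages, had 4, 5, 2, 2 and 7 counts in vehicle, 22, 15, 21, 5 and 5 at 10 μg/kg and 29, 166, 138, 121 and 70 at 30 μg/kg. The livers at 10 μg/kg overlapped with vehicle (2.68-fold, edgeR adjusted p = 0.0989), whereas those at 30 μg/kg lay above every liver at 10 μg/kg. Itgam rose 16.4-fold at 30 μg/kg (log2 4.04, SE 0.64, adjusted p = 1.42e-06) and 6.13-fold from 10 to 30 μg/kg. Of its exonic bases in GENCODE M21, 68.7% (3450 of 5024) also belong to Gm49368 on the same strand, a gene with 1 count in all 40 libraries together, and reads there count for neither gene if they are set aside as ambiguous, so the counts of Itgam may understate its level in every group. The other 7 genes share no exonic bases with another gene. Itgb2, the beta chain with which Itgam pairs, had 50 to 86 counts in vehicle, and rose 1.97-fold at 1 μg/kg, 3.90-fold at 10 μg/kg and 9.45-fold at 30 μg/kg.

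Compared per kilobase of exon, the levels of the genes were low in vehicle and spread out at 30 μg/kg. In vehicle the highest was Cybb with 1.17 ± 0.284 CPM per kb (SD, n = 5), which S100a9 with 0.747 ± 0.473 overlapped, and Ncf4, Ncf1, Csf3r and S100a8 lay between 0.400 and 0.573 and within each other's spread. Retnlg (0.156 ± 0.215) and Itgam (0.0510 ± 0.0308) were the lowest with counts. The level of Itgam was divided by all 5024 of its exonic bases, of which only 1574 are unshared, so its rank depends on that length. At 30 μg/kg S100a9 had 19.4 ± 9.30 CPM per kb, and S100a8 (9.81 ± 4.82), Mmp8 (9.12 ± 4.99) and Cybb (8.83 ± 2.78) followed with overlapping ranges. Csf3r (4.72 ± 1.53) and Ncf4 (4.68 ± 1.27) did not differ beyond their spread, nor did Ncf1 (2.86 ± 0.819) and Retnlg (1.57 ± 0.866) leave each other's range. The lowest was Itgam, 0.847 ± 0.428, with the limit on shared exons given above.

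From 10 to 30 μg/kg, 8 of the 9 genes rose again and none fell (10.6% of all genes were called higher and 10.6% lower in this step). The step was 26.6-fold for Mmp8, 6.13-fold for Itgam, 4.41-fold for S100a8 and 3.69-fold for S100a9, and 2.47-fold for Csf3r, 2.37-fold for Cybb, 2.07-fold for Ncf4 and 1.76-fold for Ncf1. In 4 of the 9, S100a9, Csf3r, Mmp8 and Itgam, the 5 livers at 30 μg/kg were all above the 5 at 10 μg/kg, as in 5.35% of all genes. Against vehicle, the groups did not overlap in 9 of 9 genes at 30 μg/kg (19.7% of all genes) and in 5 of 9 at 10 μg/kg (12.9%). The limit that the filter sets for Mmp8, Retnlg, Itgam, S100a8 and S100a9 holds for these counts too. Without library 1, the step for the oxidase partner Cyba was 2.48-fold, beside 2.22-fold with it.

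Library 2 at 3 μg/kg stood apart in genes outside the 9 as well. Cxcl1, a chemokine that attracts neutrophils, had 40, 3677, 66, 93 and 57 counts at 3 μg/kg and 37 to 77 in vehicle. Its call at that dose (13.5-fold, edgeR adjusted p = 0.00456) rested on that liver, without which it was at 1.12-fold (adjusted p = 0.914). Cxcr2, the receptor for such chemokines, had 0, 44, 1, 3 and 2 counts, and Lcn2, a siderophore-binding granule protein that hepatocytes also secrete, had 79, 798, 102, 307 and 168. The 3 oxidase genes summed to 25.0 CPM in that liver and to 14.4 to 24.1 CPM in the other 4, and its 12 monocyte and macrophage markers summed to 418 CPM, inside the 255 to 476 CPM of the others. The 6 neutrophil genes summed to 31.2 CPM there and to 3.71 to 6.64 CPM in the other 4 livers. Its share of unmapped reads is given above, and the part of read quality in this was not tested.

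Library 1 at 30 μg/kg was the lowest of its group in all 9 genes. The 6 neutrophil genes summed to 18.2 CPM in it and 59.7 to 90.6 CPM in the other 4, the 3 oxidase genes to 38.9 against 65.5 CPM or more, and the macrophage markers to 603 against 1014 to 1593 CPM. Its Cyp1a1 level, 6230 CPM, lay inside the range of the other 4 (4750 to 6376 CPM). All 9 genes were called at 30 μg/kg without it, as with it.

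Of 12 further granule genes, only Lcn2, Chil3 and Mmp9 were tested, and all 3 rose at 30 μg/kg. Where a granule gene was scarce in vehicle, it could pass the filter only through treated livers, so being tested and rising are linked. Lcn2 went from 5.15 ± 1.77 to 124 ± 75.1 CPM (SD, n = 5; 23.9-fold), Chil3, a chitinase-like protein of granulocytes and activated macrophages, rose 39.0-fold and Mmp9, the granule gelatinase, rose 8.57-fold. The genes made early in neutrophil maturation, in the marrow, had few counts. Mpo had 4, 2, 29, 0 and 11 counts at 30 μg/kg and 0 in vehicle, Elane had 2, 0, 15, 3 and 4, and Ctsg had at most 6. Among proteins of the later granules, Ltf had 5, 6, 28, 3 and 20 counts, Camp 1, 1, 19, 2 and 18 and Ngp 4, 7, 55, 9 and 26. Libraries 3 and 5 had the highest counts of Mpo, Elane, Ltf, Camp and Ngp at 30 μg/kg, whereas library 2 had the highest counts of S100a8, S100a9, Csf3r, Retnlg, Mmp8 and Itgam. Without the filter on low counts, 7 of the 12 were called, Mpo, Ltf, Ngp and Mmp25 being added.

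**Figure D4:**
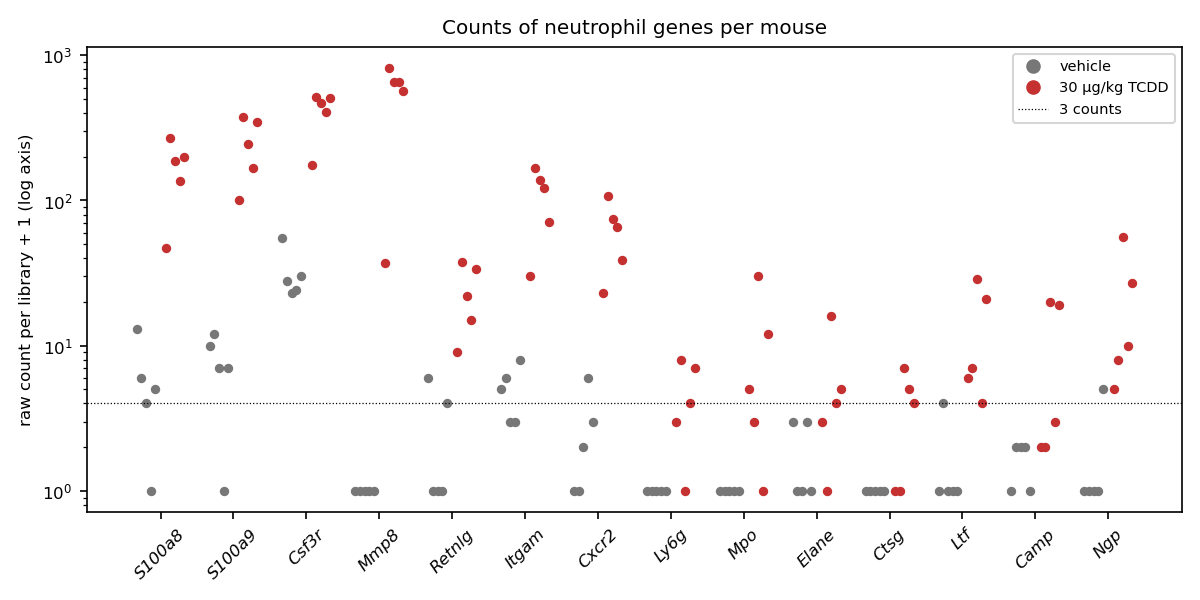
Raw count plus 1 (log axis) of 14 neutrophil genes in the 5 vehicle livers (grey) and the 5 livers at 30 μg/kg TCDD (red), with a dotted line at 3 counts. Mmp8 reaches 815 counts at 30 μg/kg, while Ly6g has at most 7 and Ctsg at most 6.

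Ly6g, the surface protein by which mouse neutrophils are usually sorted, had 0 counts in vehicle and 2, 7, 0, 3 and 6 at 30 μg/kg, a mean of 0.151 CPM, below the 0.191 CPM that 3 counts are worth in vehicle, so no fold is given. Of 10 neutrophil surface genes, 5 were tested and all 5 rose at 30 μg/kg. A gene scarce in vehicle, such as Cxcr2, passed the filter only through treated livers, so being tested and rising are linked. Cxcr2 had 0 to 5 counts in vehicle and 22, 107, 74, 65 and 38 at 30 μg/kg (22.6-fold, log2 4.50, SE 0.95), and the formyl peptide receptors Fpr1 and Fpr2 rose 5.51-fold and 7.21-fold. The Fc receptors Fcgr3 and Fcgr4, which macrophages also carry, rose 10.2-fold and 8.53-fold. Il1r2 had 10 to 124 counts, Trem1 3 to 52 and Cd177 0 to 25 at 30 μg/kg, with at most 1 in any vehicle library, and did not pass the filter. Without the filter they and Ly6g were called, 9 of the 10 in all. With the filter, leaving out any 1 of 35 of the 40 libraries brought the number called to 8, and without library 1 at 30 μg/kg, 1 of these, Il1r2, Trem1 and Cd177 were the genes added. Leaving out a library also let more genes pass the filter. Without library 1 at 30 μg/kg, 15666 genes passed in place of 15373, and 8 surface genes were tested. The other integrins and their partners, 5 of 6 tested, all rose, with Itgax, the alpha chain typical of dendritic cells and some macrophages, 13.9-fold, Fermt3, which activates these integrins, 6.63-fold, their ligand Icam1 3.46-fold and Itgal 3.32-fold. Itgad had at most 3 counts.

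Signals that recruit neutrophils did not move as a block. Of 9 genes, 6 were tested and 4 rose at 30 μg/kg, beside 1 at 10 μg/kg and 1 at 3 μg/kg. Cxcl2 had 0, 0, 0, 0 and 1 counts in vehicle and 8, 54, 45, 78 and 43 at 30 μg/kg (edgeR adjusted p = 3.2e-07), and from 10 to 30 μg/kg it rose 5.09-fold. Cxcl5 had 2, 4, 0, 0 and 0 counts in vehicle and 12, 124, 68, 48 and 17 at 30 μg/kg (27.2-fold). Both Cxcl2 and Cxcl5 passed the filter only through treated livers, so being tested and rising are linked for them. Alox5ap, needed for leukotriene synthesis, rose 6.23-fold, and Ppbp, a platelet chemokine, rose by 1.44 on the log2 scale (SE 0.61, edgeR adjusted p = 0.0448). Without the filter on low counts Ppbp was not called (adjusted p = 0.0879) and Csf3, Cxcl3 and Alox5 were, 6 in all, and with vehicle and 30 μg/kg fitted alone 1 of 4 tested was called. Cxcl1 had 140, 101, 67, 102 and 119 counts at 30 μg/kg and was at 1.28-fold (log2 0.35, SE 0.88, adjusted p = 0.759). It was highest outside that group, with 3677 counts in the liver described above and 881 in library 5 at 10 μg/kg, where the group was at 4.31-fold and not called (adjusted p = 0.0607). Csf3, the ligand of Csf3r, had 0, 29, 2, 7 and 19 counts at 30 μg/kg and 0 to 1 in vehicle, too few to pass the filter.

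Of 5 genes of calprotectin sensing, 3 rose at 30 μg/kg. Tlr4 rose 5.27-fold, its co-receptor Cd14 7.20-fold and its partner Ly96 1.62-fold, while Ager (1.02-fold) and the adaptor Myd88 (0.996-fold) were not called. Of 5 factors that direct granulocyte genes, 4 were tested, of which 3 rose and 1 fell. Spi1, which encodes PU.1, rose 6.34-fold, Cebpd 2.34-fold and Cebpb 1.86-fold (edgeR adjusted p = 0.0389). Cebpe, the C/EBP factor of late granulocyte maturation, fell 1.97-fold, from 8.82 ± 1.95 to 4.49 ± 3.21 CPM, and Gfi1, also of that lineage, had at most 10 counts. Among 5 genes that handle oxidants, 2 rose and 1 fell: Ucp2 rose 18.5-fold and Hmox1 14.3-fold, Cat fell 1.78-fold, and Sod2 (1.10-fold) and Gpx1 (0.793-fold) were not called.

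Markers of other cells moved with the 9 genes. All 12 monocyte and macrophage markers rose at 30 μg/kg (11 without library 1), and 11 of 12 at 10 μg/kg, 5 at 3 μg/kg and 3 at 1 μg/kg. Their summed level was 170 to 242 CPM in vehicle and 603 to 1593 CPM at 30 μg/kg, with Marco at 40.8-fold, Cx3cr1 at 11.4-fold, Lyz2 at 9.77-fold, Cd68 at 8.19-fold, Csf1r at 4.69-fold and Adgre1 at a log2 change of 2.63. Cybb per count of Adgre1, uncorrected for length, had a median of 0.986 in vehicle (0.743 to 1.18) and 1.07 at 30 μg/kg (0.950 to 1.51). All 5 pan-leukocyte markers rose (summed 22.2 to 33.9 CPM in vehicle, 107 to 247 CPM at 30 μg/kg), as did 6 of 7 lymphocyte markers tested and 3 of 6 dendritic markers, whereas from 10 to 30 μg/kg none of the lymphocyte and dendritic markers was called. Siglecf, a marker of eosinophils, had 0 to 1 counts in vehicle and 29 to 105 at 30 μg/kg, and Ccr3 rose 15.5-fold, but the granule genes Prg2 and Epx that define eosinophils were at 0 counts. Of the 7 eosinophil and mast cell genes only 2 were tested. All 7 together summed to 0.0647 to 0.560 CPM in vehicle, so the fold of Ccr3 is against a level near the floor. The globins Hbb-bs (1.05-fold) and Hba-a1 (0.965-fold), which mark blood left in the tissue, were not called, while Alas2 fell 8.12-fold and the platelet gene Pf4 rose 12.6-fold. The other 5 of the 7 red cell and platelet markers were not called, the platelet gene Itga2b among them. The red cell and platelet markers together summed to 453, 109, 156, 151 and 477 CPM in the 30 μg/kg livers. These lay on both sides of the 239 to 399 CPM of vehicle, so the folds near 1 do not show equal levels in each liver. Of 8 markers of other liver cells, all tested, 1 rose at 3 μg/kg, 4 at 10 μg/kg and 6 at 30 μg/kg (5 without library 2 of that group), and they summed to 195 to 261 CPM in vehicle and 470.1 to 876 CPM at 30 μg/kg. The 6 were Col1a1, a collagen chain of activated stellate cells and fibroblasts (23.3-fold), Lrat (2.73-fold) and Dcn (2.36-fold) of stellate cells, the bile duct markers Epcam (7.12-fold) and Krt19 (4.43-fold) and the endothelial Pecam1 (2.54-fold), while Stab2 (1.32-fold) and Clec4g (1.40-fold) of sinusoidal endothelium stayed under the fold threshold. The part of these cell types in the results was not tested.

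Across the 40 libraries, which share the dose series, the genes most like 4 of the 9 were listed by the Pearson correlation (r) of log2 CPM. For S100a8 they were Sat1 and Slfn4 (r = 0.90), Csf3r (0.90), Ccr1 (0.88) and Ccl6 (0.88). For Csf3r they included P2rx7 (0.94) and Spi1, Fcer1g and Fcgr3 (each 0.93), and for Cybb they were Axl (0.97) and Msn, Slc11a1, Clec7a and Sirpa (each 0.96). For Itgam they were Mmp8, Fbn2, Slc7a11, Ly6d and Htra1 (each 0.86). Once the mean of each dose group was removed, so that only differences between mice of the same dose remained, the lists changed. Cybb was then nearest Cd5l (0.72), Mpeg1 and Axl (each 0.71), S100a8 nearest Fosl2 (0.71) and Csf3r nearest P2rx7 (0.67), with Junb at 0.68 for S100a8 and 0.65 for Csf3r.

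Among the 9 genes themselves, with group means removed (n = 40 libraries), r between pairs of the 6 neutrophil genes ran from 0.13 for Retnlg and Itgam to 0.61 for S100a8 and Csf3r. It was 0.54 between S100a8 and S100a9 and 0.52 between Mmp8 and Itgam. Cybb had r = 0.18 with S100a8, 0.25 with S100a9, 0.41 with Csf3r and 0.55 with Mmp8, and Ncf1 had 0.08 with both S100a8 and S100a9. Within the oxidase, r was 0.26 for Cybb with Ncf1, 0.44 for Cybb with Ncf4 and 0.35 for Ncf1 with Ncf4. These are descriptions, since the libraries share their depth and scaling, and low counts add noise to the neutrophil genes.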

How the data were processed

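Total RNA of frozen liver from 40 mice was sequenced as paired ends after library preparation with the NEBNext Ultra II kit. The submitters' processing notes name FastQC 0.11.7, Trimmomatic 0.39 and STAR 2.7.3a, and the builds GRCm39 and mm10 without their roles. The count files that the authors deposited hold, for every library, the whole-number read counts that STAR gave each gene, without regard to strand and by strand, and 1 table of normalized log2 values for all 40 libraries, whose normalization is not given in the sources used here. The gene annotation is not given there either. Symbols were matched by Ensembl identifier to GENCODE M21 (52083 of 55359 identifiers), and exon lengths and overlaps were taken from it.

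Unstranded counts of all 40 libraries were fitted with edgeR 4.0.16 in R 4.3.3 (filterByExpr with a minimum count of 10 and total of 15, TMM scaling, quasi-likelihood test, 1 mean per dose). Genes scarce in vehicle can pass this filter through treated livers alone. Each dose was compared with vehicle, 30 with 10 μg/kg, and a slope was fitted over dose steps 0 to 7. P-values were adjusted by Benjamini-Hochberg over 15373 genes, and a call needed an adjusted p under 0.05 and, except for the slope, a fold change of at least 1.5. Folds against groups without counts use a floor of 3 counts per library, which covers counting error only. Log2 CPM used a prior count of 2. The procedure was tested on simulated data with 200 changed genes. Every simulated gene had the same spread between mice and a level above 0 in vehicle. That test therefore does not cover genes near the floor or livers that stand apart. The alternatives, 53 in all, included limma 3.58.1 on the deposited log2 table and DESeq2 1.42.0 on the counts. The 9 genes and all lists were chosen with earlier results of these data known, and 2 genes of these lists are not reported here or counted in them. Beside the 9 genes, the text names from each list up to 5 called genes by size of change at 30 μg/kg, a set of standard markers, and small remainders of lists, the last chosen after their values were seen. Mice were numbered 1 to 5 within a group in accession order.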

Additional observations from a re-analysis of the deposited data

Results flagged for a closer look

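Within each dose group, the liver farthest from the others was compared with the spread of its group by Dixon's criterion for 5 values, for 9 genes in 8 groups. Of 72 groups, 12 passed it. The chance rate of about 1 in 20 holds for normally distributed values, not for low counts tied at 0. A lone count among zeros passes by itself, as for Mmp8 at 0.1 μg/kg, and Mmp8 in vehicle held only zeros. The 12 can therefore not be set against that rate. At 30 μg/kg, library 1 was low for Csf3r (8.054 CPM, next 16.24) and for Mmp8 (1.666 CPM, next 23.86), and library 2 at 3 μg/kg was high for Mmp8 (1.194 CPM). These are the livers described above. Library 5 at 10 μg/kg had 0 CPM of Mmp8 while the other 4 had 15 to 28 counts, and it was also the liver of that group with the highest Cxcl1 (881 counts).

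The others concerned low counts. Ncf4 was low in vehicle library 4 (0.5597 CPM), which also had 0 CPM of S100a9, and high in library 4 at 0.1 μg/kg (1.792 CPM). S100a9 was at 0 CPM in library 3 at 0.3 μg/kg, and Csf3r was low in library 2 at 0.03 μg/kg (0.6974 CPM). Retnlg was high in library 1 at 0.3 μg/kg (0.3891 CPM, 7 counts). Mmp8 was high in library 3 at 0.1 μg/kg (0.06369 CPM, 1 count) and in library 5 at 0.3 μg/kg (0.2125 CPM, 4 counts).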

How the results depend on the processing

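The count of the 9 genes called was 0 at 0.03, 0.1 and 0.3 μg/kg under all 53 alternatives. At 1 μg/kg it went from 2 to 1 in numbering run 1 alone, 0 in run 2 alone and 1 with the counts of 1 strand. At 3 μg/kg it went from 6 to 1 in run 1 alone and 2 in run 2 alone, and ranged from 3 (without library 2 of that group) to 7 (without library 1 at 30 μg/kg) when single libraries were left out. At 10 μg/kg it was 3 in place of 7 in run 1 alone, where fewer mice enter the fit. With only genes of at least 50 counts on average tested, which removes 4 of the 9, it was 5 at 30 μg/kg, 5 for the step from 10 to 30 μg/kg and 5 for the slope. When single libraries were left out, it stayed at 2, 7 and 9 at 1, 10 and 30 μg/kg and ranged from 7 to 8 for the step. Of the 94 further list genes tested, 75 were called higher or lower at 30 μg/kg, where 23.2% of all genes were called higher and 18.9% lower. The number was 71 to 81 when single libraries were left out, which also let more genes pass the filter, and 47 of 61 with at least 50 counts on average. S100a8 at 1 μg/kg, 0.08 on the log2 scale and not called, turned to -0.12 in run 1 alone and ranged from -0.42 to 0.60 when single libraries were left out. Itgam, also not called at these doses, turned from -0.50 to 0.058 at 1 μg/kg in run 1 alone and from 0.46 to -0.35 at 3 μg/kg with the counts of 1 strand, and the cause was not tested. Scaling to total counts alone moved the median of all genes at 30 μg/kg to 0.52 and called Itgam at 10 μg/kg as well, 8 in all. On the deposited log2 table the changes were smaller (S100a8 2.43 at 30 μg/kg), and all 9 genes stayed called there. No paired analysis was possible because the labels do not tie a mouse of one group to a mouse of another, the numbers being only names. The low counts of Retnlg, Itgam, Mmp8, S100a8 and S100a9 limit what can be seen below 10 μg/kg.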
